A study of Mus musculus with 12 samples.

Results

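The caveolae coat genes followed here are the caveolins Cav1 and Cav2, the cavins Cavin1, Cavin2 and Cavin3, and Ehd2, 6 genes of the 18193 that could be measured in mouse yolk sac. They were taken by name, as the proteins that build the coat of a caveola and the ATPase that sits at its neck. Measured values also entered the choice: the set was selected on the large log2 difference of Cav1 between stages in the knockout. All 15 probe sets that the array annotation gives to these genes were used, of 45037 in all. Cav1 and Cavin3 have 1 probe set each, Cav2 has 2, Cavin1 and Cavin2 have 3 each and Ehd2 has 5.

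The study set yolk sacs of Hypb-/- embryos (knockout) against those of Hypb+/+ embryos (wild type) on Affymetrix whole-genome mouse arrays, at the embryonic stages E9.0 and E10.5, named by days of gestation. Hypb is an older name of Setd2, the enzyme that trimethylates histone H3 on lysine 36. E9.0 was chosen as an early stage at which the mutant still looks close to normal, and E10.5 as the stage shortly before its death. The 4 groups were wild type at E9.0, knockout at E9.0, wild type at E10.5 and knockout at E10.5, all of the strain given as 129Sv/C57BL/6, with 3 arrays per group and a pool of 4 yolk sacs behind each array. The labels give the genotype and name no Cre or promoter, and the sources used here do not describe the deleted part of the gene. The p-values measure the spread between such pools. A yolk sac is a mixture of cell types, so fewer cells of a type and less RNA per cell cannot be told apart.

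Caveolae are small flask-shaped pits of the plasma membrane, abundant in endothelium, smooth muscle, fibroblasts and mesothelium. Caveolin-1 inserts into the inner leaflet as oligomers and is required for the pit in cells other than striated muscle, and caveolin-2 joins it in those oligomers. Cavin-1 is the soluble coat protein without which caveolins do not make caveolae, cavin-2 and cavin-3 assemble with it, and EHD2 forms a ring at the neck that holds the pit at the cell surface.

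Values are deposited log2 values made with RMA (robust multi-array average), and 1 log2 unit is a doubling. Each gene was read on its brightest probe set, by mean over the 12 arrays, and a gene was called changed at an adjusted p under 0.05 (limma, Benjamini-Hochberg over all genes). The array medians lay between 5.27 and 5.34, and the pairwise Spearman correlations were 0.973 to 0.994. RMA gives all arrays 1 distribution, so close medians cannot show whether an array stood apart before processing. Setd2 ranged from 7.53 to 7.99 in the knockout and from 8.83 to 9.08 in the wild type at E9.0, and from 7.77 to 8.07 against 8.66 to 8.77 at E10.5. The knockout arrays thus lay below the wild type arrays at both stages (adjusted p = 0.00207 and 0.00294, limma), though whether its probe set lies in the deleted part was not tested. Hybridisation controls set replicate 3 apart at E9.0, where BioC minus BioB was -0.11 and 0.01 against 1.44 to 1.5, and a spike's 3' minus 5' difference did so at E10.5, with 1.87 and 1.85 against 1.23 to 1.44. The labels name no such grouping.

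Cav1 and Cav2 are neighbours. On mouse build GRCm38.p6, Cav2 lies at chr6:17281185-17289130 and Cav1 at chr6:17306335-17341328, with 17204 bases and 0 other annotated genes between them. Cavin2 lies at chr1:51289126-51302960, Cavin1 at chr11:100956736-100970617, and Cavin3 and Ehd2 far apart on chromosome 7, at chr7:105480616-105482197 and chr7:15946963-15967535. The 3 promoter windows below are shown because these are the members whose values the results turn on: the neighbouring caveolins, which differed in how far knockout and wild type lay apart, and the cavin that was lower on the E9.0 knockout arrays. They run from 250 bases before to 50 bases after the annotated start, are taken from RefSeq on GRCm38.p6 (the first of 2 annotated starts for Cav1), and are written 5' to 3' on the plus strand, on which all 3 genes lie. Capitals mark matches, on either strand, to GGGCGG (the GC box of the SP1 family), to TATAAA (the TATA box), to GGAATG (the TEAD family site) or to the CArG box of SRF. A GC box on the other strand reads CCGCCC, and a TATA box there reads TTTATA.
Cav1, chr6:17306085-17306384, plus strand: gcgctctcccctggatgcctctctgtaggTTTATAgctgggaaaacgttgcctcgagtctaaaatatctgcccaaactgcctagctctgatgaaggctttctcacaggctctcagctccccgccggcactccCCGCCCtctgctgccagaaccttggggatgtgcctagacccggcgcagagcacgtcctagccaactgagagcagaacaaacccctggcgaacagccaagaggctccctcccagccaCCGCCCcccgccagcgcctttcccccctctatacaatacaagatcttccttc
Cav2, chr6:17280935-17281234, plus strand: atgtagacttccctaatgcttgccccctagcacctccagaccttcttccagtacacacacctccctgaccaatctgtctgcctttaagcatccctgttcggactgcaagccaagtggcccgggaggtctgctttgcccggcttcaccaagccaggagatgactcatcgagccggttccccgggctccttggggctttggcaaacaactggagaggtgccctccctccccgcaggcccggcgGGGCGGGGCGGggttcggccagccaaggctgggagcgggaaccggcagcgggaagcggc
Cavin2, chr1:51288876-51289175, plus strand: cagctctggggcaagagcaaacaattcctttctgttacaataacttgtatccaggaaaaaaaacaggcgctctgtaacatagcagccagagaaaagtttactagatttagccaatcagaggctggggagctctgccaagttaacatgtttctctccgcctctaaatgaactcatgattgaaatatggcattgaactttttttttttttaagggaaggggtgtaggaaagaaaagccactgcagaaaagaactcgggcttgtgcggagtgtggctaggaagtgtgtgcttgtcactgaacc

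The Cav1 window had a GC content of 59.3%, 13 CpG dinucleotides, 2 matches to GGGCGG and 1 to TATAAA. The Cav2 window was 64.3% GC with 16 CpG dinucleotides, and its 2 GGGCGG matches overlap by 1 base. The Cavin2 window was 43.3% GC with 4 CpG dinucleotides, and no letters in it are in capitals. For comparison, the median window of 32851 RefSeq windows was 52.7% GC, and GGGCGG was found in 35.7% of them, TATAAA in 13.6%, GGAATG in 14.7% and the CArG box in 1.63%. Windows were found for 5 of the 6 genes. No window of these 5 genes matched the CArG box, and GGAATG matched in the Cavin1 windows alone. The short ETS core GGAA, which was searched but is not in capitals, occurs in 96.0% of all windows and was found 3 times in the Cav1, 5 times in the Cav2 and 5 times in the Cavin2 window. These matches describe letters and not bound sites.

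Cav1, which encodes the structural protein of the pit, was read at 5.46, 6.00 and 6.22 on wild type replicates 1, 2 and 3 at E9.0, and at 5.32, 5.74 and 5.15 in the knockout. At E10.5 the wild type arrays read 7.62, 7.43 and 7.25 and the knockout arrays 9.68, 7.74 and 9.0. All E10.5 arrays lay above all E9.0 arrays. The genotypes overlapped at E9.0 and did not at E10.5, where the second knockout array stood just above the wild type and the other two well above it. The group means were 5.89 ± 0.39 (SD, n = 3) and 5.40 ± 0.30 (SD, n = 3) for wild type and knockout at E9.0, then 7.43 ± 0.19 (SD, n = 3) and 8.81 ± 0.98 (SD, n = 3) at E10.5. The knockout at E10.5 was the group with the widest spread.

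Cav2, the partner that joins caveolin-1 in its oligomers, read 6.5, 6.96 and 6.94 in wild type and 7.32, 7.35 and 6.98 in knockout at E9.0. At E10.5 it read 8.01, 7.61 and 7.76 in wild type and 8.42, 8.19 and 8.11 in knockout. Knockout arrays lay above wild type arrays at both stages without overlap, at E9.0 by a margin of 0.02 between the nearest arrays. The order of the 4 groups was wild type then knockout at E9.0, then wild type and knockout at E10.5. A second Cav2 probe set stayed between 4.5 and 4.93 on all arrays and showed none of these differences.

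Cavin1, the cavin on which the coat depends, read 7.56, 7.67 and 7.46 in wild type and 7.78, 8.15 and 7.30 in knockout at E9.0. At E10.5 the wild type arrays lay within 7.83 to 7.90 and the knockout arrays read 8.07, 7.83 and 8.62. The knockout arrays were scattered on both sides of the wild type at E9.0, and reached down to it at E10.5. The SD was 0.43 and 0.41 in the 2 knockout groups against 0.11 and 0.04 in the 2 wild type groups.

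Cavin2, which binds phosphatidylserine and helps to bend the membrane, read 7.77, 7.74 and 8.21 in wild type and 7.09, 7.48 and 6.85 in knockout at E9.0. At E10.5 it read 9.12, 8.91 and 9.16 in wild type and 9.14, 9.04 and 8.74 in knockout. All knockout arrays were below all wild type arrays at E9.0, and the genotypes overlapped at E10.5. Its 2 other probe sets gave the same order at E9.0, with wild type arrays at 7.89 to 8.28 and knockout arrays at 7.03 to 7.25 on one, and 6.98 to 7.71 against 6.28 to 6.82 on the other.

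Cavin3, also known as a binding partner of protein kinase C delta, read 6.30, 6.64 and 6.85 in wild type and 6.88, 6.98 and 6.89 in knockout at E9.0. At E10.5 it read 7.55, 7.35 and 7.18 in wild type and 7.93, 7.68 and 7.65 in knockout. As with Cav2, the knockout arrays lay above the wild type arrays at both stages without overlap, at E9.0 by 0.03 between the nearest arrays.

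Ehd2 read 5.6, 5.94 and 6.18 in wild type and 5.80, 5.58 and 5.59 in knockout at E9.0. At E10.5 it read 5.81, 5.73 and 6.05 in wild type and 5.80, 5.85 and 6.12 in knockout. All 4 groups overlapped. It was also the member whose level lay below the median gene, where RMA compresses differences, while the other 5 lay above it.

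**Figure D1:**
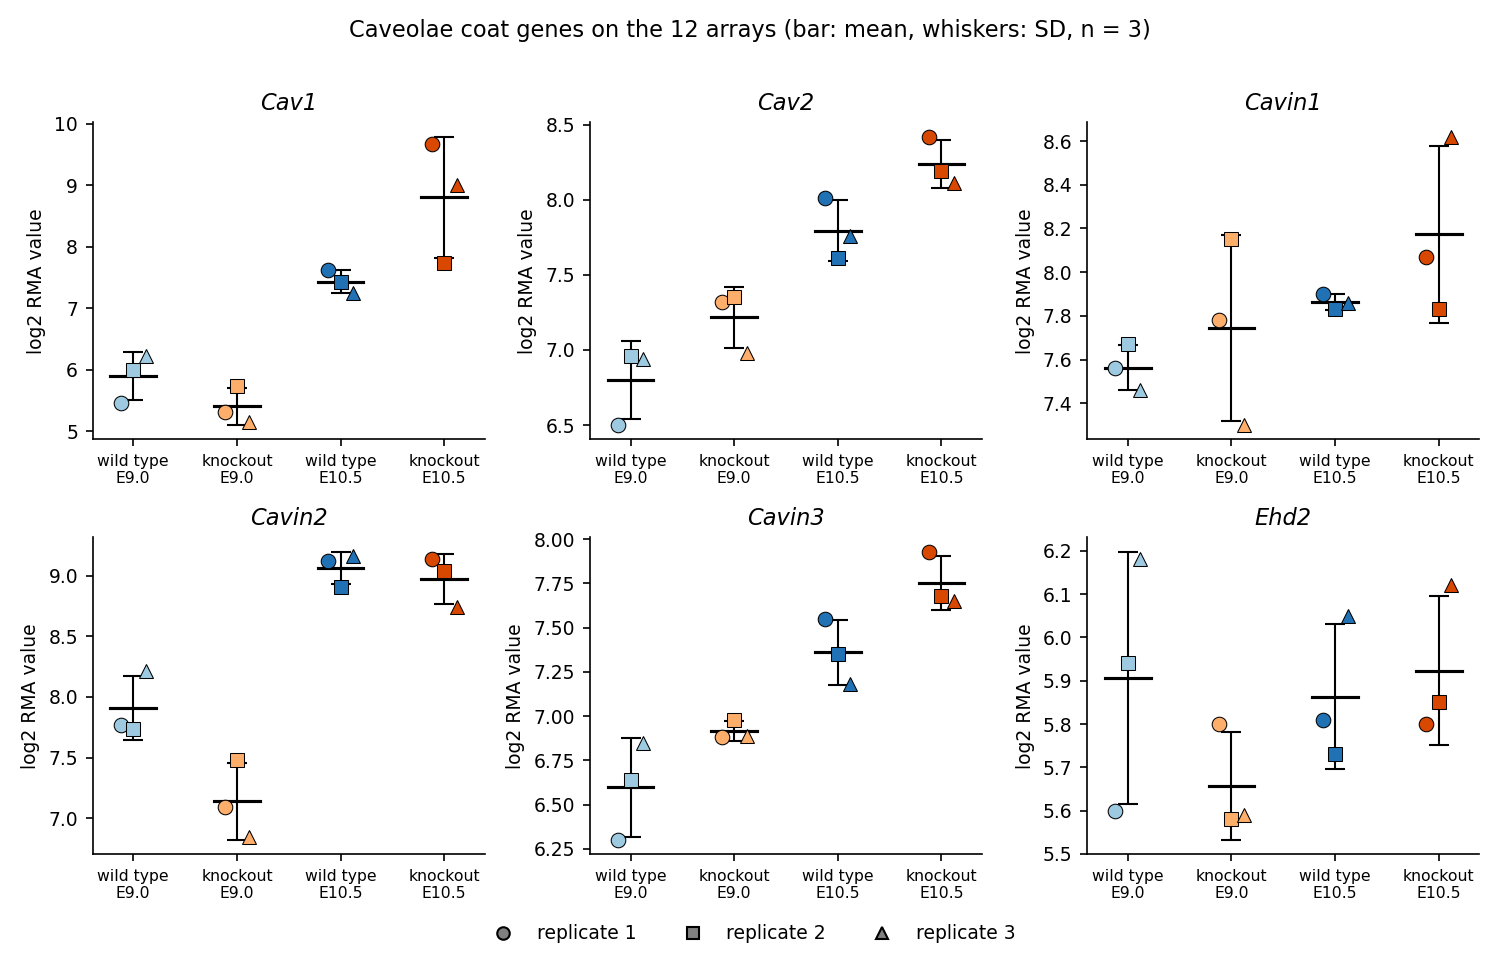
Log2 RMA value (y axis, a separate scale in each panel) of each of the 6 genes on the 12 arrays, by group (x axis); points are arrays, with a shape for each replicate number, bars are means and whiskers SD (n = 3). Cav1 in the knockout at E10.5 spans 7.74 to 9.68, and Cavin2 in the knockout at E9.0 lies at 6.85 to 7.48, below its wild type arrays at 7.74 to 8.21.

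Between E9.0 and E10.5 in wild type yolk sac, 4 of the 6 coat genes rose: Cav1 by 1.54 on the log2 scale (SE 0.37, 2.91-fold), Cavin2 by 1.16 (SE 0.17, 2.23-fold), Cav2 by 0.99 (SE 0.16, 1.99-fold) and Cavin3 by 0.76 (SE 0.14, 1.7-fold). Both caveolins and the cavins 2 and 3 thus rose together, while Cavin1 (0.30, SE 0.21) and Ehd2 (-0.04, SE 0.15) did not pass the test. The adjusted p was 0.00996 for Cav1, 0.000588 for Cavin2, 0.000766 for Cav2 and 0.00229 for Cavin3, and 0.355 and 0.88 for Cavin1 and Ehd2 (limma). Calls in the same direction were made for 13.4% of all genes, 22.2% in either direction. The E10.5 arrays lay above the E9.0 arrays without overlap for 5 of the 6, Cavin1 included, against 22.7% of all genes. The median difference of the 6 was 0.88, and 0.03 over all genes. The log2 differences of this comparison use no knockout array, but their SE and adjusted p rest on a spread shared with the knockout arrays. The calls are therefore not fully independent of the arrays on which the set was chosen. With the 2 wild type groups fitted alone, 5 of the 6 coat genes passed.

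Among the 15 probe sets 4 rose, 1 each of Cav1, Cav2, Cavin2 and Cavin3, where 14.4% of all probe sets were called in either direction. The 3 Cavin2 probe sets disagreed in size: the brightest gave 1.16, and the others gave 0.38 (SE 0.21, adjusted p = 0.269) and 0.33 (SE 0.25, adjusted p = 0.437). The mean of all probe sets of a gene gave 0.62 for Cavin2 and 0.53 for Cav2, and both were still called.

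In the knockout, Cav1 was 3.40 higher at E10.5 than at E9.0 (SE 0.37, 10.6-fold). These are the values for which the set was chosen, so they are given as a description with no test. Cavin2 was 1.83 higher (SE 0.17, 3.56-fold), Cav2 1.02 (SE 0.16), Cavin3 0.84 (SE 0.14), Cavin1 0.43 (SE 0.21) and Ehd2 0.27 (SE 0.15). The E10.5 arrays lay above the E9.0 arrays without overlap for 4 of 6 genes, as they did for 20.7% of all genes, and the median of the 6 was 0.93 against 0.03 over all genes. Set beside the wild type, the difference between stages was 1.86 larger in the knockout for Cav1 (SE 0.53) and 0.68 larger for Cavin2 (SE 0.25), and 1.15 and 1.13 larger on the other 2 Cavin2 probe sets. For Cav2, Cavin3 and Cavin1 it was 0.03, 0.07 and 0.13 larger, each within its SE, and for Ehd2 0.31 larger (SE 0.21). The 2 genes with the larger values reached them from different sides. For Cav1 the knockout minus wild type difference was -0.49 at E9.0 and 1.37 at E10.5, whereas for Cavin2 it was -0.77 at E9.0 and -0.09 at E10.5. The median centring of each array shifted the median gene by -0.13 in this comparison and by -0.097 in that of the wild type, and the differences between stages given here exceed that shift for every gene but Ehd2 in wild type.

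**Figure D2:**
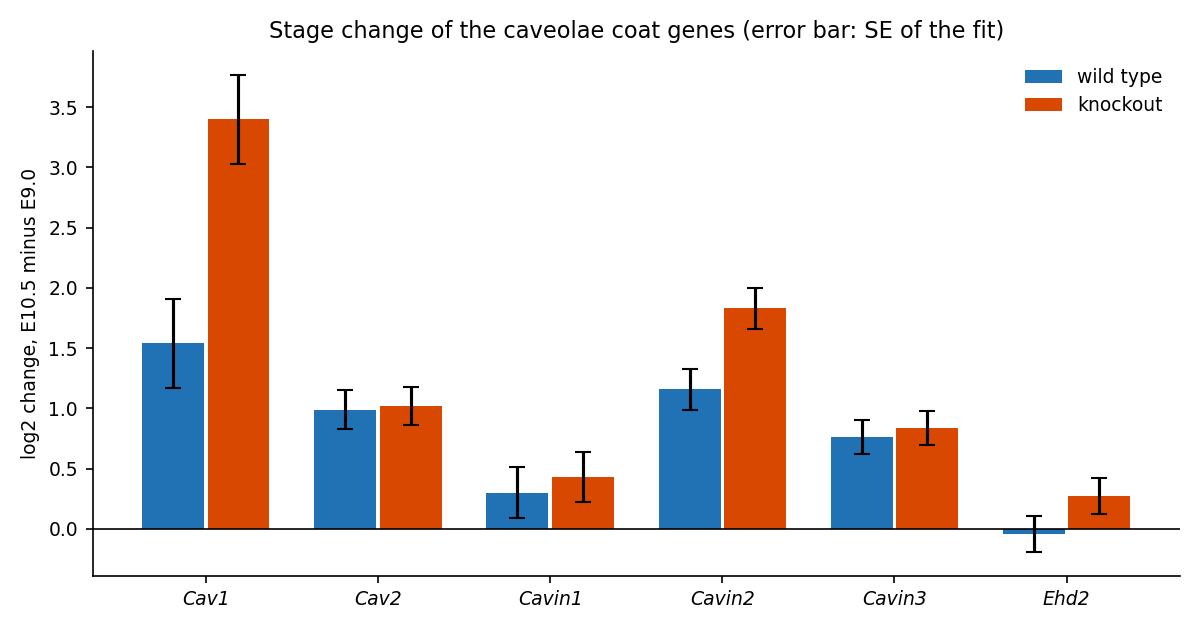
Log2 difference of E10.5 minus E9.0 (y axis) for the 6 genes (x axis), in wild type (blue) and knockout (orange); bars start at 0 and error bars are the SE of the fit. Cav1 stands at 1.54 in wild type and 3.40 in knockout, while the bars of Cav2 and of Cavin3 are nearly level between genotypes.

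At E10.5, Cav1 was higher in the knockout than in the wild type by 1.37 (SE 0.37, 2.59-fold, 95% interval 0.57 to 2.18, adjusted p = 0.0428, limma). It was the 1 member of the 6 that passed, where 7.28% of all genes did and 4.12% rose. Cav2 was 0.45 higher (SE 0.16, interval 0.11 to 0.78, adjusted p = 0.115) and Cavin3 0.39 higher (SE 0.14, interval 0.09 to 0.70, adjusted p = 0.129), and neither passed. Knockout arrays lay above wild type arrays without overlap for these 3 genes of 6, against 11.5% of all genes. Cavin1 gave 0.31 (SE 0.21, adjusted p = 0.469), Cavin2 -0.09 (SE 0.17, interval -0.47 to 0.29, adjusted p = 0.843) and Ehd2 0.06 (SE 0.15, adjusted p = 0.883). The median of the 6 was 0.35, against -0.01 over all genes. The 3 knockout arrays used here are also those on which the set was chosen, so the result for Cav1 is not independent of that choice.

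The size of the Cav1 difference depended on the array. Replicate by replicate it was 2.06, 0.31 and 1.75, and within replicates 1 and 2 it was 1.18 (adjusted p = 0.197), against 1.75 between the arrays of replicate 3. Its call rested on several arrays. Without knockout replicate 1 the value was 0.94 (adjusted p = 0.155), without knockout replicate 3 it was 1.28 (adjusted p = 0.0894), and without wild type replicate 1, 2 or 3 of that stage it was 1.47, 1.37 or 1.28 (adjusted p = 0.0859, 0.121 and 0.123). Without knockout replicate 2, the low array, it was 1.91 (adjusted p = 0.00136). Leaving out an E9.0 array does not move the value but changes the shared spread, and the adjusted p then rose above 0.05 for knockout replicates 1 (0.0602) and 2 (0.0523) and wild type replicate 2 (0.0612). With replicate 3 as a batch it was 0.0535, and with the 2 groups fitted alone 0.116. Among all 45037 probe sets it was 0.073, so that 0 of the 15 member probe sets passed there, where 3.64% of all did. At an unadjusted p under 0.05 there were 3 of the 15 in that fit by limma, and 7184 of all probe sets.

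At E9.0 no coat gene passed the test, where 1.18% of all genes did. Cavin2 came nearest, with a knockout minus wild type difference of -0.77 (SE 0.17, 1.7-fold lower, 95% interval -1.14 to -0.39), with an adjusted p of 0.0554 by limma and an unadjusted p of 0.000755. Its other 2 probe sets gave -0.94 (SE 0.21, adjusted p = 0.0848 over all probe sets) and -0.84 (SE 0.25, adjusted p = 0.21), and on each of the 3 the knockout arrays lay below the wild type arrays, as on 8.19% of all probe sets. Cav2 was 0.42 higher (SE 0.16, interval 0.08 to 0.75, adjusted p = 0.274) and Cavin3 0.32 higher (SE 0.14, interval 0.01 to 0.63, adjusted p = 0.397). Cav1 gave -0.49 (SE 0.37, interval -1.3 to 0.32, adjusted p = 0.698), Cavin1 0.18 (SE 0.21, adjusted p = 0.833) and Ehd2 -0.25 (SE 0.15, adjusted p = 0.582). The E9.0 knockout arrays also entered the choice of the set, so the result for Cav1 is not independent of that choice. Groups did not overlap for 2 genes that were higher, Cav2 and Cavin3, and for 1 that was lower, Cavin2, against 8.56% and 9.42% of all genes. Of the 15 probe sets 0 passed by limma, where 0.406% of all did. At an unadjusted p under 0.05 there were 3 of the 6 genes, namely Cav2, Cavin2 and Cavin3, and 6 of the 15 probe sets, against 2149 of all genes and 4230 of all probe sets.

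The Cavin2 value at E9.0 lay close to the threshold from either side. Without knockout replicate 2 of that stage it was -0.94 (adjusted p = 0.0288), and without knockout replicate 3 of E10.5 it was -0.77 (adjusted p = 0.0433), and both passed. Over all alternatives its adjusted p ranged from 0.0288 to 0.212. Within replicates 1 and 2 it was -0.47 (adjusted p = 0.189), and between the arrays of replicate 3 it was -1.36. Knockout replicate 3, the array with the lowest Cavin2, also read highest of the E9.0 knockout arrays for parietal endoderm markers, with a mean of 11.55 over 9 genes against 9.54 and 9.35, and without it Cavin2 gave -0.62 (adjusted p = 0.169). On wild type E9.0 replicates 1, 2 and 3 the parietal endoderm mean was 10.57, 9.73 and 9.44. Cavin2 read 7.77, 7.74 and 8.21 there. The part of parietal endoderm cells in the Cavin2 value was not tested.

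**Figure D3:**
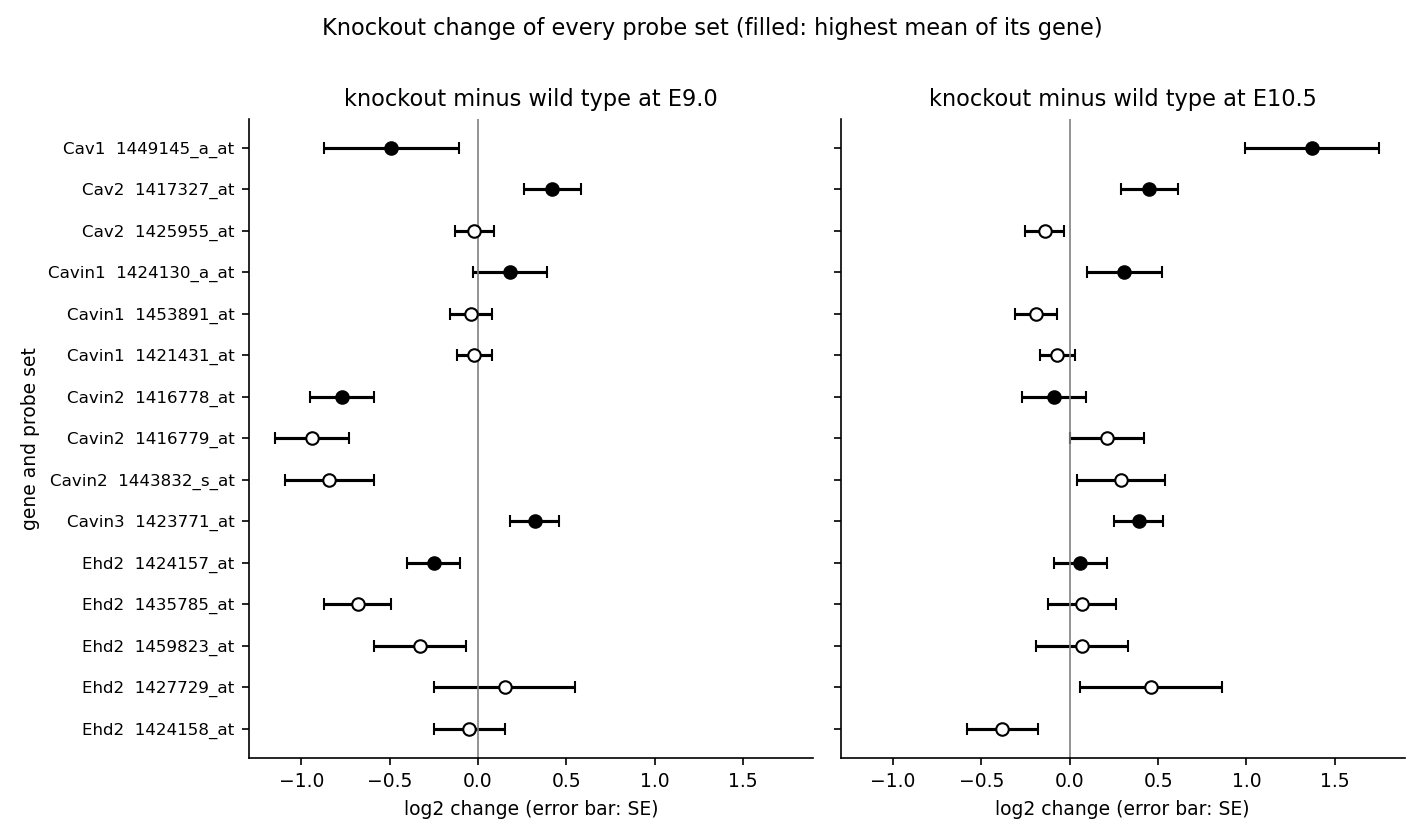
Log2 change, knockout minus wild type (x axis), of all 15 probe sets (y axis) at E9.0 (left) and E10.5 (right); points are the fitted changes, error bars their SE, and filled points the brightest probe set of a gene. The 3 Cavin2 probe sets lie together at -0.77, -0.94 and -0.84 at E9.0, and Cav1 lies at 1.37 at E10.5.

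The dimmer probe sets were called in no knockout comparison. Both further Cavin1 probe sets and the second Cav2 probe set gave knockout changes between -0.19 and -0.02. Of the 5 Ehd2 probe sets, 1 was lower on every knockout array at E9.0 (-0.68, SE 0.19, adjusted p = 0.173), and the same probe set gave 0.07 (SE 0.19, adjusted p = 0.91) at E10.5. Another was lower on every knockout array at E10.5 (-0.38, SE 0.20, adjusted p = 0.408) and gave -0.05 (SE 0.20) at E9.0. With a dim Cavin1 probe set (knockout 3.79 to 3.93, wild type 3.94 to 4.29, -0.19, SE 0.12, adjusted p = 0.512), 2 of the 15 were lower without overlap at E10.5, beside 9.81% of all probe sets. The 5 probe sets of Ehd2 therefore did not move as 1, and none passed in a knockout comparison.

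The muscle members of both families were dim on every array. Cav3, the caveolin of striated muscle, ranged from 3.18 to 3.85, and Cavin4, the muscle cavin, from 3.5 to 4.19. At E10.5 the knockout difference was -0.30 for Cav3 (SE 0.11, adjusted p = 0.134) and 0.04 for Cavin4 (SE 0.15, adjusted p = 0.933). Neither showed the difference seen for Cav1 in the knockout, and Cav3 fell by 0.36 between stages there (SE 0.11, adjusted p = 0.0319).

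A second list held genes that shape or pinch off the neck of the pit and scaffold the membrane around it. Of its 9 measured genes, for dynamin-2, the other EHD proteins, pacsins, filamin A and the flotillins, 0 passed at E9.0 and 1 at E10.5, where 1.18% and 7.28% of all genes did. At an unadjusted p under 0.05 there were 0 and 4 of the 9 (limma), beside 2149 and 3680 of all 18193 genes. The gene called at E10.5 was Flna, the actin crosslinker that ties caveolae to stress fibres, which was 0.53 higher in the knockout (SE 0.13, adjusted p = 0.0258). It lost the call without knockout replicate 1 (0.50, adjusted p = 0.0876) or 3 (0.42, adjusted p = 0.0655) and without wild type replicate 1 (0.57, adjusted p = 0.0558) or 2 (0.44, adjusted p = 0.117). In wild type between stages, Ehd3 rose by 0.33 and Ehd4 (-0.58) and Flna (-0.38) fell, and the list had a median of -0.18 where the coat genes had 0.88. Ehd4, a paralog of Ehd2, fell in every alternative (adjusted p up to 0.0187 when 1 array was left out). The 3 calls of 9 stand beside 22.2% of all genes. Ehd3 lost its call on the mean of its probe sets (0.07, adjusted p = 0.687), with median centring (0.23, adjusted p = 0.0829) and in 4 of 12 such fits (adjusted p up to 0.0637, without wild type E9.0 replicate 1), and Flna in 9 (adjusted p up to 0.183, without wild type E10.5 replicate 2). Genes of these lists called between stages lie outside the naming rule and were named after their values were seen.

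Of 12 genes for kinases that act on caveolin-1 and for proteins known to reside in caveolae, 0 passed at E9.0 and 1 at E10.5, again beside 1.18% and 7.28% of all genes. At an unadjusted p under 0.05 there were 0 and 2 of the 12 (limma), beside 2149 and 3680 of all 18193 genes. The gene called was Insr, the insulin receptor, which was lower in the knockout at E10.5 (-0.79, SE 0.17, adjusted p = 0.0165). It lost the call without wild type replicate 2 (-0.63, adjusted p = 0.0763) and on the mean of its probe sets (-0.32, adjusted p = 0.0889). The list had a median of 0.03 at E10.5. In wild type between stages 5 of the 12 were called, beside 22.2% of all genes: Insr rose by 0.74 and Cd36, a fatty acid carrier, by 0.67. Nos3, the endothelial nitric oxide synthase that caveolin-1 binds and holds inactive, fell (-1.07, SE 0.15, adjusted p = 0.000352, called in every alternative), and so did Plvap (-0.87), the protein of the diaphragm across caveolae and fenestrae, and Ptpn1 (-0.62). With 1 array left out, Cd36 lost its call in 5 of 12 fits (adjusted p up to 0.137, without wild type E10.5 replicate 1), Plvap in 4 (up to 0.0566, without wild type E9.0 replicate 3) and Ptpn1 in 4 (up to 0.0815, without wild type E10.5 replicate 3). In the knockout between stages Nos3 also fell (-0.79, SE 0.15, adjusted p = 0.00243). Cav1 and Nos3 thus changed in opposite directions between stages in wild type.

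The clathrin coat is the other main endocytic coat of the cell. Of its 19 measured genes 0 passed in either knockout comparison, where 1.18% and 7.28% of all genes did, with medians of 0.03 at E9.0 and -0.12 at E10.5. At an unadjusted p under 0.05 there were 0 and 3 of them (limma), and 2149 and 3680 of all 18193 genes. Between stages in wild type, Cltb (0.54) and Ap2s1 (0.43) rose, Epn2 (-0.41) and Dab2 (-0.40) fell, and the median was 0.01. On the mean of all probe sets Cltb gave 0.22 (adjusted p = 0.123) and Dab2 -0.25 (adjusted p = 0.249), and both lost the call. Dab2 also lost it in 4 of 12 fits with 1 array left out (adjusted p up to 0.078, without wild type E10.5 replicate 1). The difference between the coats was not tested.

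Markers of the cells that carry caveolae also differed between the groups. At E10.5 the mean log2 value over 16 endothelial markers was 8.02, 7.68 and 8.17 on knockout replicates 1, 2 and 3 and 7.31 to 7.67 in wild type, and 2 of the 16 rose in the knockout, where 4.12% of all genes did. They were Pecam1 (0.86, adjusted p = 0.0453) and Robo4 (0.54, adjusted p = 0.0434, named outside the rule), which lost the call in 8 and 9 of 12 fits with 1 array left out (adjusted p up to 0.184 without wild type E10.5 replicate 2, and up to 0.129 without wild type E10.5 replicate 1). The mean over 15 markers of mesenchyme and smooth muscle was 10.01, 9.80 and 10.53 in the knockout and 9.69 to 9.81 in wild type, and 4 of the 15 rose, Acta2 (0.76) and Tagln (1.02) among them, with 3 or 4 called when 1 array was left out (Tagln gave 0.98, adjusted p = 0.0614, without wild type E10.5 replicate 2). For 7 mesothelial markers the knockout arrays lay at 6.33 to 6.59 and the wild type arrays at 5.99 to 6.16, and 3 rose, with 1 to 3 called when 1 array was left out. For 8 heart muscle markers the knockout arrays read 7.21, 5.87 and 6.42, against 4.92 to 5.13 in wild type, and 4 rose, with 3 to 6 called when 1 array was left out. Myl7, the first of these, differed by 3.21 (SE 0.56, adjusted p = 0.00477). Of the 8 heart genes 6 lay below the median gene, and Nppa stayed at 3.10 to 3.21 in all group means.

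The other lists gave these values at E10.5, where 4.12% of all genes were called higher and 3.16% lower. For trophoblast 2 of 6 markers were measured, both below the median gene, with 0 called. Their mean was 3.90, 3.98 and 5.46 on knockout replicates 1, 2 and 3, and 3.74 to 4.05 in wild type. Visceral endoderm markers, 11 in number, had a mean of 12.38 to 12.54 in the knockout and 12.61 to 12.7 in wild type, with 0 higher and 1 lower, Cubn (-0.36, adjusted p = 0.0353), and 0 to 3 lower when 1 array was left out. For 9 parietal endoderm markers the means were 9.52 to 9.59 and 8.74 to 9.25, with 0 called. For 8 macrophage markers they were 7.29 to 7.49 and 7.30 to 7.39, with 3 higher and 1 lower (1 to 3 higher and 1 lower when 1 array was left out). For 8 markers of primitive red blood cells they were 10.08 to 10.92 and 10.95 to 11.06, with 0 higher and 2 lower (0 to 2 when 1 array was left out), and for 5 of decidua 8.08 to 8.85 and 8.11 to 8.26, with 0 called (0 or 1 higher when 1 array was left out).

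The 3 knockout arrays at E10.5 had the same order, replicate 1 highest and replicate 2 lowest, for Cav1, for the heart muscle markers and for the decidual markers (8.85, 8.08 and 8.43), and the reverse order for the red blood cell markers (10.08, 10.92 and 10.56). For Cavin1 they had the order of the mesenchymal and the endothelial markers, replicate 3 highest and replicate 2 lowest. Replicate 2 was thus the lowest of the 3 for Cav1, Cavin1, the heart muscle, decidual, mesenchymal and endothelial markers. It was not the lowest for the other members. Replicate 3 was lowest for Cav2, Cavin2 and Cavin3, and replicate 1 for Ehd2. Other lists differed. Replicate 1 was lowest for mesothelial (6.33, 6.36 and 6.59) and trophoblast markers (3.90, 3.98 and 5.46). Replicate 2 was highest for macrophage (7.40, 7.49 and 7.29), parietal endoderm (9.52, 9.59 and 9.52) and red blood cell markers. For visceral endoderm, replicates 1 and 2 both read 12.38. The part of any of these cell types in the Cav1 and Cavin1 values was not tested. In wild type between stages, when Cav1 rose, the endothelial mean went from 7.81 to 7.94 at E9.0 to 7.31 to 7.67 at E10.5, with 1 marker higher and 6 lower of 16, and the heart muscle mean from 4.90 to 6.04 down to 4.92 to 5.13. The mesenchymal mean went from 9.25 to 9.53 up to 9.69 to 9.81, with 5 of 15 higher, and the macrophage mean from 6.13 to 6.30 up to 7.30 to 7.39, with 7 of 8 higher. Of all genes, 13.4% were called higher and 8.86% lower between stages in wild type. Visceral endoderm is the epithelium that defines the yolk sac, and its defining genes Afp and Ttr had group means of 13.79 to 14.17, so the labelled tissue was present throughout. No RMA value is at 0.

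**Figure D4:**
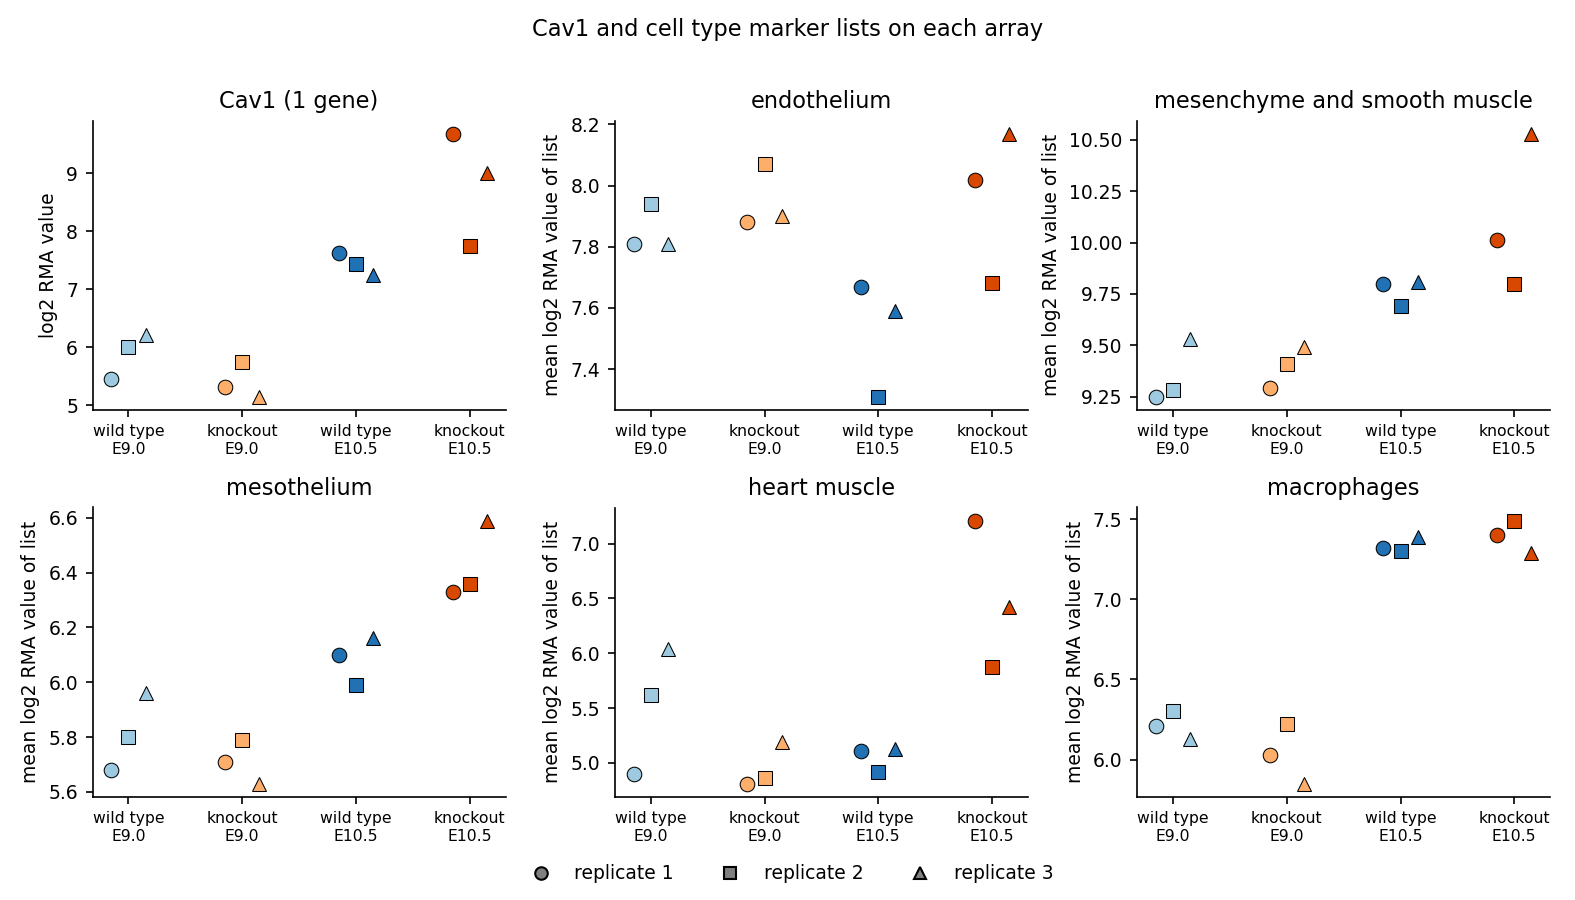
Log2 RMA value of Cav1 (first panel) and mean log2 RMA value of 5 cell type marker lists (other panels) on each of the 12 arrays, by group; points are arrays, shaped by replicate number, and each panel has its own scale. The knockout E10.5 arrays read 9.68, 7.74 and 9.0 for Cav1 and 7.21, 5.87 and 6.42 for the heart muscle list.

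Among the members, the profiles of Cav2 and Cavin3 lay closest together. With each gene centred on its own mean over the 12 arrays, the 2 differed by a root mean square of 0.16 on the log2 scale, against spreads of 0.57 and 0.46 around their own means. Of 18192 other genes Cavin3 was the 2nd nearest to Cav2, and Cav2 the 8th nearest to Cavin3. Cav2, the genomic neighbour of Cav1 whose promoter window is shown above, was the 243rd nearest to Cav1, and Cavin2 the 116th, at a difference of 0.84. A gene with a small spread is near to many others, so these ranks describe likeness in size as well as in shape. They are given over 12 arrays of 4 groups that the genes share, and carry no test.

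**Figure D5:**
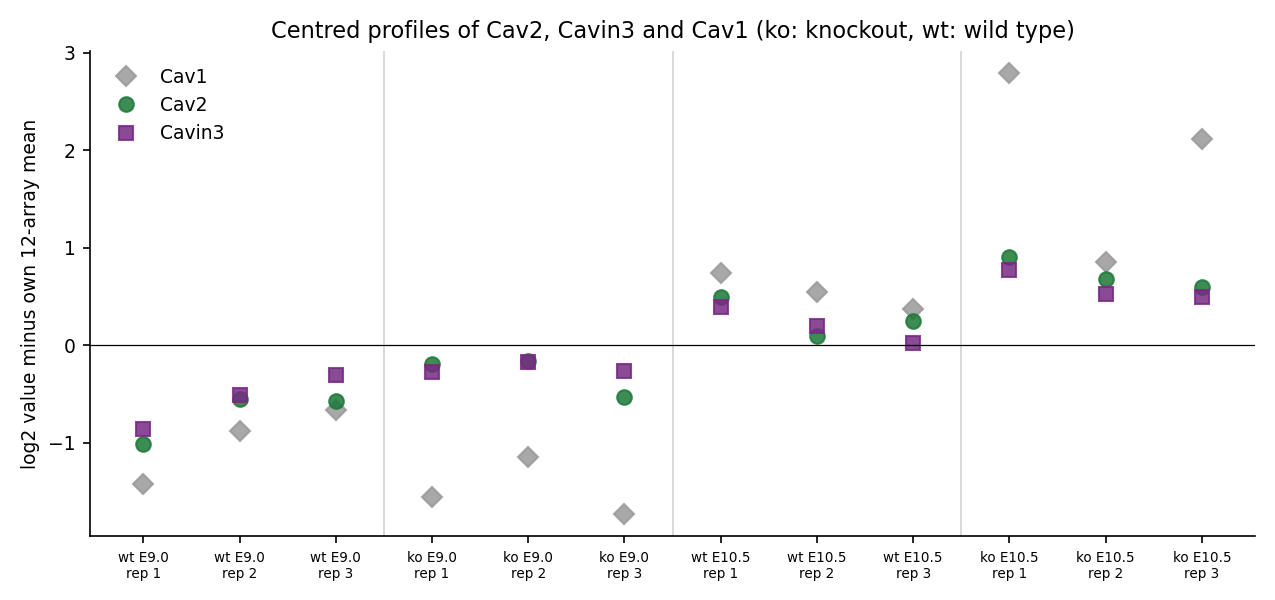
Log2 RMA value of Cav1 (grey diamonds), Cav2 (green circles) and Cavin3 (purple squares) minus the gene's own mean over the 12 arrays (y axis), array by array (x axis). Cav2 and Cavin3 differ by a root mean square of 0.16. Cav1 runs below both on every E9.0 array and above both on every E10.5 array, in both genotypes.

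The genes nearest to Cav1 over the 12 arrays were Rsad2 and Gbp7 (root mean square difference 0.42 each), Ifitm3 (0.43), Tmem255a (0.52) and Tyrobp (0.55). Rsad2, Gbp7 and Ifitm3 are known as interferon-induced genes and Tyrobp as a signalling adaptor of myeloid cells. Rsad2 had means of 6.77 and 6.75 in wild type and knockout at E9.0, and of 7.91 and 9.93 at E10.5. On the knockout E10.5 arrays Rsad2 (10.55, 9.52 and 9.72), Gbp7 (8.39, 7.8 and 8.04) and Tmem255a (8.04, 5.82 and 7.13) had the order of Cav1. Ifitm3 and Tyrobp did not. Tmem255a is a membrane protein gene. Those nearest to Cavin1 were Rnf144b (0.13), Tgfbr2 (0.15), Zfp956 (0.16), Ppp3ca (0.16) and Cacna1h (0.17). Tgfbr2, a receptor for TGF-beta, read 9.31, 8.87 and 9.42 on the knockout E10.5 arrays. All of the genes listed for Cavin1 were lowest in replicate 2 and highest in replicate 3 there, as Cavin1 was. The genes were picked for closeness on these same arrays, so a shared order follows largely from that choice. Median centring takes the same amount from every gene on an array. It therefore cannot change these distances and is no check of them.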

How the data were processed

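Total RNA of pooled yolk sacs (5 micrograms per array) was measured on 12 single-colour arrays, 3 per group. The deposited values are log2 expression values; the submitters' processing notes name RMA as the tool, without a version. RMA corrects background, gives all arrays 1 distribution and summarises probes; it has no depth or detection call, and precision is limited by the number of arrays (median SE 0.126). Scanner files were not used here.

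From these values, 45037 probe sets were kept after leaving out 64 controls. Of these, 34945 had 1 gene symbol in the platform annotation, 932 had several and 9160 had none. Each of 18193 genes was read on its brightest probe set. limma 3.58.1 in R 4.3.3 fitted 1 mean per group over all 12 arrays (8 residual and 4.56 prior degrees of freedom), with two-sided tests in 5 comparisons and Benjamini-Hochberg adjustment over all genes, or over all probe sets. The fit was tested on simulated data.

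The members, gene lists and tests were chosen with earlier results of these data known. Named were all members, the muscle paralogs, Setd2, genes of the neck, client and clathrin lists called in a knockout comparison, up to 3 defining markers of a cell type, and the 5 genes nearest in centred profile to Cav1 and to Cavin1. Alternatives were 2 other scalings, 2 other treatments of probe sets, a filter on level, a variance trend, fits of 2 groups, replicate 3 as a batch or left out, a replicate block and each array left out. Promoter sequences and positions are those of RefSeq on GRCm38.p6, and no protein sequence was used here.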

Additional observations from a re-analysis of the deposited data

How the results depend on the processing

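The calls of Cav1, Cav2, Cavin2 and Cavin3 between stages in wild type held in all 22 alternatives, 12 of which left out 1 array. Except for the mean of all probe sets, these calls rest on the brightest probe set of each gene. The dimmer probe sets of Cavin2 (0.38 and 0.33) and Cav2 (0.08) were not called in this comparison. Cav1 at E10.5 kept its direction and lost its call in 12 of the 22, so the count of members called there (1) became 0 with every probe set as its own feature, with the 2 groups alone, with replicate 3 as a batch and with replicates 1 and 2 alone. The count of member probe sets (0) became 1 with replicates 1 and 2 alone and with the replicate block. Where genotypes barely differed, the sign turned: Cavin2 at E10.5 gave 0.14 on the mean of its probe sets and 0.08 in replicates 1 and 2. With 1 array left out it ranged from -0.17 to 0.03, Ehd2 at E10.5 from -0.04 to 0.15, Cavin1 at E9.0 from -0.02 to 0.40, and Ehd2 between stages in wild type from -0.20 to 0.09. The cause of these changes was not tested.

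Counts over all genes moved more. At E9.0 the 215 genes became 61 with the 2 groups alone, 476 with the batch, 69 in replicates 1 and 2 and 349 with the replicate block. At E10.5 the 1325 became 873 above the median level (fewer genes tested), 773 with the 2 groups alone and 2082 with the batch, and between stages in wild type the 4044 genes became 6345 probe sets. The difference of the knockout effect (knockout minus wild type) between stages had 34 genes. It had 53 with median centring, 22 probe sets, 91 with the batch and 115 with the replicate block. Above the median level it had 0 by limma, where 680 of the 9095 genes had an unadjusted p under 0.05. With 1 array left out the counts ranged from 33 to 290 at E9.0 and 693 to 1630 at E10.5. Between stages they ranged from 2911 to 4513 in wild type and 3093 to 4790 in knockout. For the difference of the knockout effect between stages they ranged from 12 to 90. Members called ranged from 0 to 1, 0 to 1 and 4 to 4 at E9.0, E10.5 and between stages in wild type, and member probe sets from 0 to 1, 0 to 1 and 3 to 4. Median centring turned the share of higher calls from 60.1% to 41.5% in wild type between stages, from 61.1% to 35.0% in the knockout (50.7% by quantile normalisation) and from 46.5% to 56.5% at E9.0.

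Deviations from the group mean were correlated between same-numbered arrays. Knockout and wild type of a stage gave 0.03 to 0.24 at E9.0 and 0.07 to 0.40 at E10.5. Differently numbered arrays at E9.0 gave -0.36 to 0.26. Between stages, same-numbered arrays gave -0.03 to 0.19 in wild type and -0.03 to 0.12 in the knockout. Whether the replicate number pairs arrays within a stage was not tested, and the main fit leaves them unpaired. With the replicate block Cav1 at E10.5 had an adjusted p of 0.0252, and no member gene changed its side of the threshold in any comparison tested. Differences on dim probe sets are compressed towards 0 by RMA. Ehd2 was the member read below the median gene, and the dimmest member probe set was one of Cavin1 (mean 3.59).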
